A study of Rattus norvegicus with 36 samples.

Results

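Set against each other here are the Bayertitan overload cultures and the Bayertitan control cultures of rat alveolar macrophages, with 3 libraries each. These 6 libraries were chosen from the 36 of the series by their column names in the deposited count table, and the comparison was described across all genes. The series exposed primary alveolar macrophages in culture to 4 particles, a carbon black named Printex90 and 3 titanium dioxides named G1-1, G3-1 and Bayertitan, each with overload, non-overload and control cultures. Its title places the rat cells in a comparison of macrophage responses to particle overload between rats, mice and humans. The overload group consisted of alveolar macrophages from male F344/HanZtmRj rats, cultured for 5 days in DMEM containing 10% serum (fetal bovine) and an antibiotic-antimycotic, and exposed for 4 days to Bayertitan at the loading named overload. The non-overload group, used for side-by-side values, had the same cells, medium and exposure time at the loading of that name. The control group had the same cells, medium and time under the condition labelled control for Bayertitan. The doses behind these names, the number of rats and whether cells of several rats were pooled are not given in the sources used here. The labels call the libraries biological replicates without tying them to separate animals. The p-values of genes rest on the spread between libraries within groups, estimated over all 36 libraries, which may be partly technical.

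Alveolar macrophages are the resident phagocytes of the air spaces. They take up inhaled particles into phagosomes, which fuse with lysosomes, acid compartments filled with proteases and other hydrolases and kept acid by a proton pump in their membrane. Poorly soluble particles such as titanium dioxide are not digested there, and the term overload is used for a burden at which macrophage-mediated clearance from the lung slows. Macrophages with a large lysosomal and lipid load, in lung and in other tissues, are known for a set of genes of lipid uptake and lysosomal function that includes Trem2, Gpnmb, Fabp4, Fabp5, Lpl, Cd9 and Spp1.

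Expression is given in CPM, the counts-per-million unit, on library sizes normalised by the TMM method. The 6 libraries held 25964949 to 31018863 estimated counts each, their TMM factors lay between 0.950 and 1.07, and mitochondrially encoded genes held 2.51 to 3.13% of the counts in overload and 2.52 to 3.03% in control libraries. The deposited matrix had 23487 rows, of which 14495 passed a filter on low counts and were tested. Of the defining genes of macrophages, Cd68, a lysosomal membrane protein, lay between 539 and 879 CPM. Lyz2, which encodes lysozyme, had 14075, 16768 and 13673 CPM in overload libraries, against 11694, 12545 and 11381 CPM in control libraries. Marco, a scavenger receptor of alveolar macrophages, had 5, 7 and 0 counts in overload and 7, 4 and 1 counts in control libraries and was not tested.

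Some libraries stood apart in markers of other cells. Overload replicate 1 and control replicate 3 carried fibroblast transcripts. Col3a1, a fibrillar collagen chain, had 175, 0 and 0 CPM in the overload libraries, against 0.0354, 0.0350 and 183 CPM in the control libraries. Epithelial transcripts were present in every library and differed in level between the groups. The sum of 6 epithelial markers (Epcam, Cdh1, Krt7, Krt8, Krt18 and Krt19) was 1503, 1232 and 2286 CPM in overload libraries, against 2395, 2657 and 2861 CPM in control libraries. Every overload library lay below every control library, with overload replicate 3 closest to the controls. On the mean of log2(CPM + 1) over these markers, overload averaged 7.14 ± 0.51 and control 7.91 ± 0.11 (SD, n = 3 each), a difference of -0.77. The two-sided exact permutation p was 0.1, the smallest that 3 against 3 libraries allow. The fibroblast marker mean differed by 0.37, with an exact permutation p of 0.5. In bulk RNA, fewer cells of a type and less RNA per cell cannot be told apart.

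**Figure D1:**
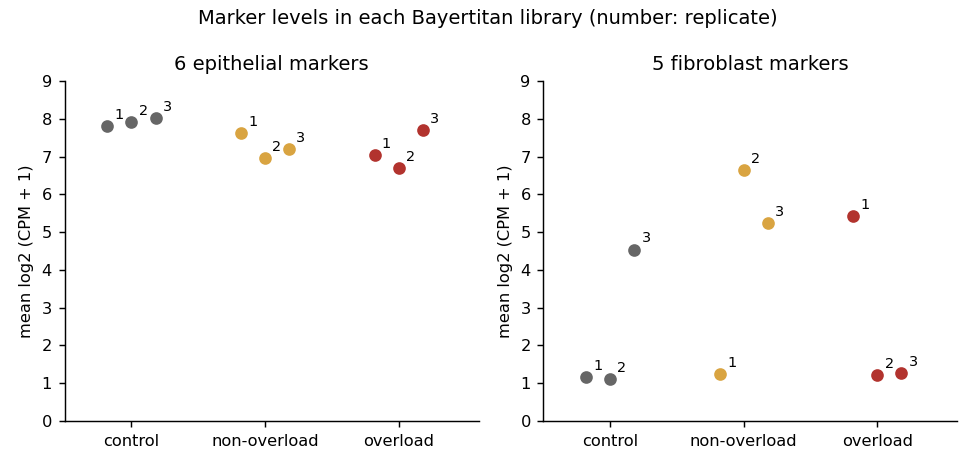
Mean of log2(CPM + 1) over 6 epithelial (left) and 5 fibroblast markers (right) in each Bayertitan library, with the replicate number beside each point. Epithelial means of the 3 overload libraries all lie under the control means, while the fibroblast mean is high in overload replicate 1, in 2 of the non-overload libraries and in control replicate 3.

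Bayertitan overload was accompanied by small rises of many genes and by larger falls of fewer genes. Among those that rose were 18 of 21 tested genes of lipid-associated macrophages, 16 of 31 of the lysosomal proton pump and nutrient sensing and 14 of 38 lysosomal proteases, hydrolases and membrane proteins. Gene lists here share members, so their counts are not separate: Cd63, Ctsb, Ctsd and Ctsl count in both the lipid-associated and the lysosomal list. At an adjusted p under 0.05 in edgeR's quasi-likelihood test, 1425 of 14495 genes passed, which is 9.83% of those tested. Of these, 832 were higher in overload (5.74%) and 593 were lower (4.09%). Counts of rises and falls within the lists below are to be read beside these shares. The median log2 fold change was 0.33 over the genes that rose and -0.71 over those that fell, against 0.01 over all tested genes. Only 11 genes rose at least 2-fold, 2 of them (Best1 and Dcn) with a mean of at least 5 CPM in overload, whereas 146 fell at least 2-fold, 89 of them with a mean of at least 5 CPM in control. All 3 overload libraries lay beyond all 3 control libraries for 808 of the genes that rose and 579 of those that fell. Such separation was found in 16.8% of all tested genes in the upward and 14.2% in the downward direction. The smallest adjusted p of any gene was 0.0150.

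The calls rested on the spread estimated over all 36 libraries and on single libraries. In a fit of the 9 Bayertitan libraries alone no gene passed with edgeR (smallest adjusted p 0.103, 3557 genes at an unadjusted p under 0.05). DESeq2 on all 36 libraries gave 1053 higher and 1052 lower genes. With the mean of the epithelial markers as a covariate in the 36-library fit no gene passed either (smallest adjusted p 0.156, 1572 genes at an unadjusted p under 0.05). The median log2 fold changes of the 832 and 593 genes were then 0.22 and -0.30. All 1425 genes, chosen for this difference in the same libraries, kept their direction. Without overload replicate 2, without control replicate 3, or without the libraries with Col3a1 above 10 CPM no gene passed with edgeR (2034, 2424 and 2376 genes at an unadjusted p under 0.05). Leaving out overload replicate 1 gave 226 higher and 51 lower genes, and leaving out overload replicate 3 gave 1044 and 1275. Leaving out control replicate 1 gave 521 and 327, and leaving out control replicate 2 gave 502 and 260. Every log2 fold change and call given below comes from the 36-library fit without covariate, unless stated.

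**Figure D2:**
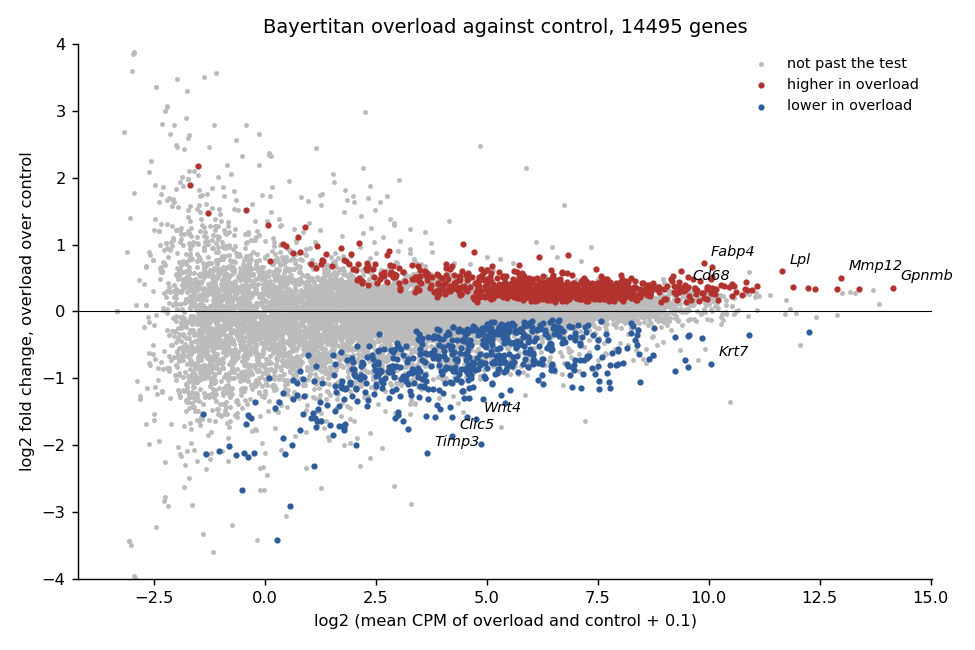
Log2 fold change of overload over control (y axis) against the log2 of the mean CPM of both groups plus 0.1 (x axis) for 14495 genes, with genes past the test in red (higher in overload) and blue (lower). The 832 red points form a shallow band that extends to the highest mean CPM, and the 593 blue points reach further from 0; 28 genes outside the plotted range of ±4 are not drawn.

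Genes of lipid-associated macrophages gave the highest share of rises among the lists. Of 21 tested genes 18 rose and none fell with overload. Their median log2 fold change was 0.38, against 0.01 over all tested genes. Fabp4, a fatty acid carrier of macrophages and fat cells, had 1101, 1406 and 1024 CPM in overload libraries, against 732, 793 and 616 CPM in control libraries. All overload libraries lay above all control libraries, overload replicate 2 was the highest of the 6 and control replicate 3 the lowest (log2 fold change 0.72 ± 0.15 (SE), edgeR adjusted p = 0.0192). Lpl, the lipase that frees fatty acids from lipoprotein triglycerides, had 3726, 4545 and 3326 CPM in overload libraries, against 2854, 2734 and 2074 CPM in control libraries, in the same order of highest and lowest library (log2 fold change 0.60 ± 0.14 (SE), edgeR adjusted p = 0.0233). Mmp12, the macrophage elastase, had 9174, 10934 and 8414 CPM in overload libraries, against 7171, 7193 and 5725 CPM in control libraries (log2 fold change 0.51 ± 0.11 (SE), edgeR adjusted p = 0.0192). For Mmp12 too, overload replicate 2 was highest and control replicate 3 lowest. Trem2, a surface receptor for lipids, had 296, 352 and 279 CPM in overload libraries, against 221, 241 and 199 CPM in control libraries (log2 fold change 0.49 ± 0.11 (SE), edgeR adjusted p = 0.0198). The tetraspanin Cd9 had 982, 1170.3 and 960.5 CPM in overload libraries, against 801, 804 and 677 CPM in control libraries (log2 fold change 0.45 ± 0.09 (SE), edgeR adjusted p = 0.0188). Trem2 and Cd9 again separated the groups without overlap. Gpnmb, a lysosomal glycoprotein of macrophages, had 19969.8, 22338 and 19013 CPM in overload libraries, against 17162, 16765 and 13989 CPM in control libraries (log2 fold change 0.36 ± 0.10 (SE), edgeR adjusted p = 0.0355). Spp1, which encodes osteopontin, had 1413, 1874 and 1498 CPM in overload libraries, against 1254, 1285 and 1162 CPM in control libraries (log2 fold change 0.37 ± 0.11 (SE), edgeR adjusted p = 0.0398). The other members that rose were Fabp5, Plin2, Lgals3, Cd68, Cd63, Itgax, Ctsb, Ctsd, Ctsl, Tyrobp and Vim, with log2 fold changes between 0.33 and 0.44. With the epithelial covariate the list's median was 0.22 and 20 of the 21 genes had a positive log2 fold change. Without the libraries carrying Col3a1 it was 0.34, and over fits that left out a single overload or control library it ranged from 0.30 to 0.42.

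**Figure D3:**
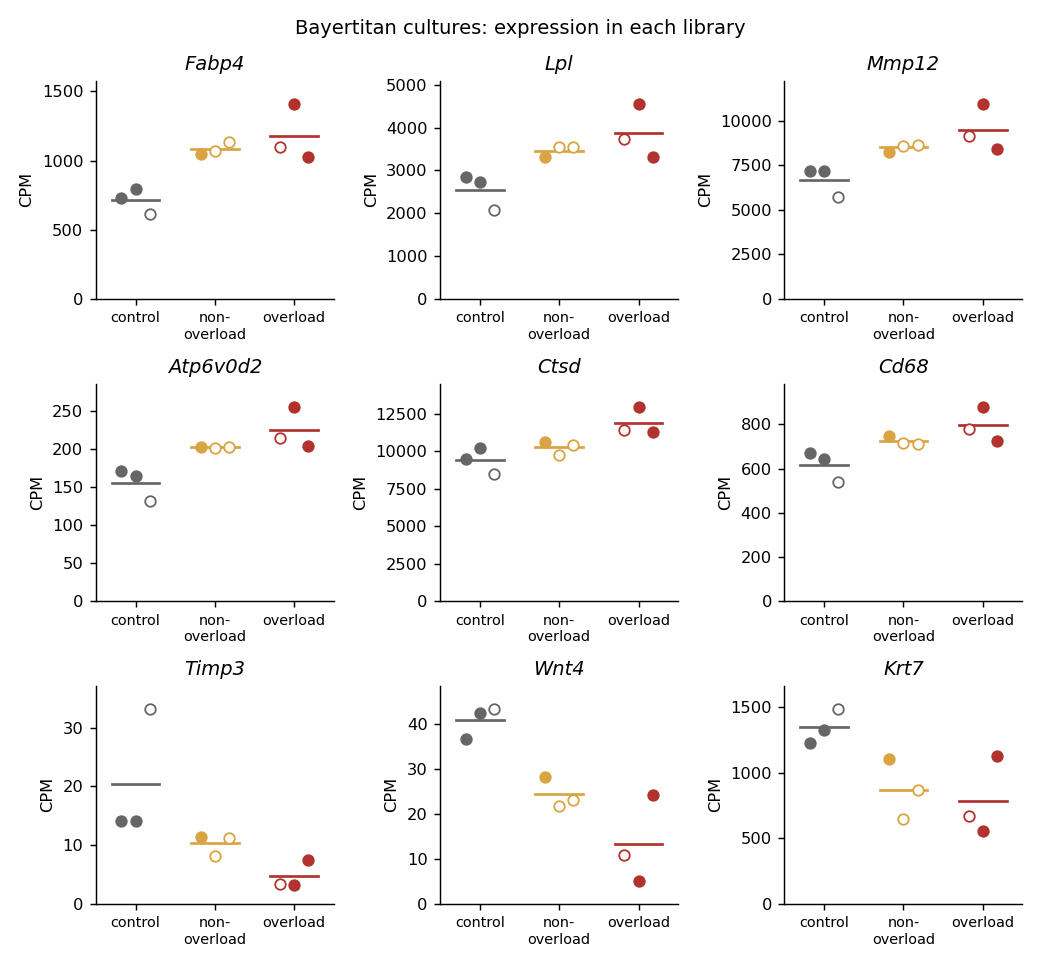
CPM of 9 genes in each Bayertitan library (y axes start at 0) by condition, with a line at the mean of 3 libraries and open circles for libraries with Col3a1 above 10 CPM. The 6 genes in the upper rows lie higher in every overload library than in every control library, Timp3, Wnt4 and Krt7 lie lower, and non-overload means fall between the means of the other conditions.

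Lists of lipid storage and sterol genes moved less. Among 33 genes of lipid uptake, storage and efflux 5 rose and none fell, with a median of 0.23. Of these 5, Fabp4, Lpl, Fabp5 and Plin2, the lipid droplet coat protein, are also members of the lipid-associated list. Outside that list only the desaturase Scd2 rose. It had 952, 1026 and 866 CPM in overload libraries, against 825, 731 and 715 CPM in control libraries (log2 fold change 0.33 ± 0.08 (SE), edgeR adjusted p = 0.0265). Of 24 genes of sterol synthesis and uptake only Srebf1, a transcription factor of lipid synthesis, passed, with 85.2, 93.7 and 82.0 CPM in overload libraries, against 76.5, 71.7 and 69.8 CPM in control libraries (log2 fold change 0.26 ± 0.08 (SE), edgeR adjusted p = 0.0400). The median of the sterol list was 0.06.

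The vacuolar proton pump, which acidifies lysosomes, and the complexes that sense nutrients on the lysosomal surface rose in 16 of 31 tested genes, and none fell. Their median was 0.27, and 0.16 with the epithelial covariate. The pump subunit of macrophages and osteoclasts, Atp6v0d2, had 215, 256 and 204 CPM in overload libraries, against 171, 164 and 132 CPM in control libraries (log2 fold change 0.53 ± 0.11 (SE), edgeR adjusted p = 0.0188). This was the largest log2 fold change of the list, with overload replicate 2 highest and control replicate 3 lowest. The cytosolic pump subunits Atp6v1a, Atp6v1b2, Atp6v1c1, Atp6v1e1, Atp6v1g1 and Atp6v1h rose by log2 fold changes of 0.27 to 0.37. The membrane subunits Atp6v0a1, Atp6v0b and Atp6v0e1 and the accessory subunit Atp6ap2 rose by 0.28 to 0.36. Lamtor1 and Lamtor3, parts of the Ragulator scaffold that brings mTORC1 to the lysosome, rose by 0.26 and 0.31. The GTPase Rragc and its regulators Flcn and Fnip2 rose by 0.27, 0.24 and 0.33.

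Lysosomal proteases, hydrolases and membrane proteins gave 14 rises among 38 tested genes and no fall, and all 38 log2 fold changes were positive. The median was 0.27, against 0.13 with the epithelial covariate. Ctsd, the aspartic protease cathepsin D, had 11407, 12981 and 11275 CPM in overload libraries, against 9472, 10245 and 8506 CPM in control libraries (log2 fold change 0.34 ± 0.08 (SE), edgeR adjusted p = 0.0265). Ctsb, the cysteine protease cathepsin B, had 8187, 9372 and 7801 CPM in overload libraries, against 7099.8, 7079 and 5994 CPM in control libraries (log2 fold change 0.33 ± 0.09 (SE), edgeR adjusted p = 0.0321). Both were above all controls in all 3 overload libraries. The cathepsins Ctsk, Ctsl and Ctsz rose by 0.42, 0.40 and 0.35, and the asparaginyl protease Lgmn by 0.33. The glycosidases Gusb, Hexa and Gaa rose by 0.44, 0.34 and 0.26. The lysosomal membrane protein Lamp2 had 772, 904 and 739 CPM in overload libraries, against 675, 677 and 571 CPM in control libraries (log2 fold change 0.33 ± 0.08 (SE), edgeR adjusted p = 0.0276), and the tetraspanin Cd63 had 1644, 1916 and 1588 CPM in overload libraries, against 1389, 1394 and 1182 CPM in control libraries (log2 fold change 0.38 ± 0.09 (SE), edgeR adjusted p = 0.0262). Autophagy genes, which deliver cell contents to lysosomes, rose in 5 and fell in 1 of 29. The receptor Optn had 724, 838 and 671 CPM in overload libraries, against 593, 580.0 and 466 CPM in control libraries (log2 fold change 0.45 ± 0.11 (SE), edgeR adjusted p = 0.0265), and Rab7a, Gabarapl1, Atg3 and Nbr1 rose by 0.27, 0.28, 0.24 and 0.18. Wipi2, which acts in forming autophagosomes, fell by 0.19 on the log2 scale.

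Many lysosomal genes are known targets of the transcription factors TFEB and TFE3, which bind the E box CACGTG within a longer element. RefSeq promoter windows of build GRCr8, from 250 bases before to 50 bases after a gene's start, were found by symbol for 9809 of the 14495 tested genes. CACGTG, which reads the same on both strands, stood in 9.24% of these windows, in 11.1% of 594 windows of genes that rose and in 9.60% of 396 windows of genes that fell. It stood in 7 of 29 windows of the lysosomal list (24.1%), 4 of 23 of the proton pump list (17.4%) and 3 of 12 of the lipid-associated list (25.0%). TGACTCA, the element of AP-1, searched on both strands, stood in 3.65% of all windows, 4.88% of those of genes that rose and 4.80% of those of genes that fell. It stood in 5 of 12 windows of the lipid-associated list (41.7%), 2 of 29 of the lysosomal list (6.9%) and 2 of 23 of the proton pump list (8.7%). These matches describe the letters of the windows and not binding. The windows below are those of the 4 genes with the smallest p among the members of these 3 lists that rose and hold CACGTG, shown because they belong to genes that rose together. They are written 5′ to 3′ on the strand of the gene, with CACGTG in capitals. Mmp12 lies on the plus strand at chr8:12866402-12866701, Cd63 on the plus strand at chr7:1921894-1922193, Ctsd on the minus strand at chr1:206968772-206969071 and Lamtor1 on the plus strand at chr1:165683865-165684164.
Mmp12: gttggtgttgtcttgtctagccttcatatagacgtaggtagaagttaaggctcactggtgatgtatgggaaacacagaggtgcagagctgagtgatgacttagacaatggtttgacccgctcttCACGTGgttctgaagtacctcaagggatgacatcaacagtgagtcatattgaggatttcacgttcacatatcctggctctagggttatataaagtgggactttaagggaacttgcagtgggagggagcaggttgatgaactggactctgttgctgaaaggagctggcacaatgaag
Cd63: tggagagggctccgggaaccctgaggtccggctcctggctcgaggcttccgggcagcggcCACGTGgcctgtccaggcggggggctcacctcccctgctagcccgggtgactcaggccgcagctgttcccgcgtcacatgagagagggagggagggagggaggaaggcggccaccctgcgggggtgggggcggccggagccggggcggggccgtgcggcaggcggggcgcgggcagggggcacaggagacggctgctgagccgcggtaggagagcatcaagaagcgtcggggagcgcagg
Ctsd: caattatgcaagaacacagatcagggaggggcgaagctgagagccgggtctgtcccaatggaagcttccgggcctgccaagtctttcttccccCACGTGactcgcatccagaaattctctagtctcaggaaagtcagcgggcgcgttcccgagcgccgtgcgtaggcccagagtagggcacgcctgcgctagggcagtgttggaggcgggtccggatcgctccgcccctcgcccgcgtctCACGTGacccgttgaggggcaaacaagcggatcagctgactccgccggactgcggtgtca
Lamtor1: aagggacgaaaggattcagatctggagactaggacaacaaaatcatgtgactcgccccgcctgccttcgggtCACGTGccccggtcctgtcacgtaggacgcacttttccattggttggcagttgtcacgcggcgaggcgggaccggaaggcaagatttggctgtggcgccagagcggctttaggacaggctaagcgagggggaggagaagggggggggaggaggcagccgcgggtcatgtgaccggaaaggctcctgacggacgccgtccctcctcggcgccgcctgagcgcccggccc
The motif began 126 bases before the start of Mmp12, 190 before that of Cd63 and 178 before that of Lamtor1. In Ctsd it stood at 157 and again at 10 bases before the start.

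Nuclear genes of the respiratory chain, which makes ATP in mitochondria, rose in 12 of 37 and fell in none, by small amounts (median 0.14). Atp5f1a, a subunit of ATP synthase, had 524, 568 and 540.3 CPM in overload libraries, against 481, 507 and 452 CPM in control libraries (log2 fold change 0.18 ± 0.05 (SE), edgeR adjusted p = 0.0325). Ndufb3 of complex I had 49.3, 54.4 and 51.2 CPM in overload libraries, against 42.8, 47.8 and 38.7 CPM in control libraries (log2 fold change 0.26 ± 0.07 (SE), edgeR adjusted p = 0.0302), and Uqcrfs1, the iron-sulphur protein of complex III, had 149.6, 162 and 145 CPM in overload libraries, against 122, 137 and 125 CPM in control libraries (log2 fold change 0.25 ± 0.07 (SE), edgeR adjusted p = 0.0325). The groups did not overlap for these genes. Sdhc and Sdhd of complex II rose by 0.22 and 0.26, and Cox4i1, Cox6a1, Cox6b1 and Cox6c of complex IV by 0.19 to 0.22. None of the 13 mitochondrially encoded genes passed with edgeR (3 at an unadjusted p under 0.05, 2 with DESeq2), and their median was 0.21. Among 39 genes of cytosolic ribosomal proteins only Rpl10 rose (log2 fold change 0.20 ± 0.06 (SE), edgeR adjusted p = 0.0365), and the median was -0.07.

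Receptors and identity genes of macrophages rose in smaller shares. Of 26 genes of alveolar macrophage identity 7 rose and none fell, with a median of 0.24. Cd68 had 781, 879 and 726 CPM in overload libraries, against 669, 643 and 539 CPM in control libraries, with overload replicate 2 highest and control replicate 3 lowest (log2 fold change 0.37 ± 0.10 (SE), edgeR adjusted p = 0.0308). Mrc1, the mannose receptor, had 1154, 1307 and 1094 CPM in overload libraries, against 1051, 971 and 917 CPM in control libraries (log2 fold change 0.27 ± 0.09 (SE), edgeR adjusted p = 0.0485). The transcription factors Egr2 and Maf rose by 0.35 and 0.38, the keratin Krt79 by 0.50, the integrin chain Itgax by 0.37 and Tgfbr1, a receptor chain for TGF-beta, by 0.35. Lyz2, given above, did not pass (log2 fold change 0.32 ± 0.12 (SE), edgeR adjusted p = 0.0707). Among 20 scavenger and phagocytic receptors and bridging proteins 3 rose and 1 fell. Scarb1, which takes up lipoprotein cholesterol, had 317, 362 and 297 CPM in overload libraries, against 250.1, 258 and 204 CPM in control libraries (log2 fold change 0.46 ± 0.14 (SE), edgeR adjusted p = 0.0453). Mfge8, which bridges dying cells to phagocytes, had 297, 227 and 397 CPM in overload libraries, against 416, 516 and 582 CPM in control libraries and fell (log2 fold change -0.72 ± 0.20 (SE), edgeR adjusted p = 0.0340). Of 10 Fc receptors, which bind antibody, Fcgr3a and Fcgrt rose, Fcgr3a with 141, 163 and 122 CPM in overload libraries, against 111, 114 and 93.2 CPM in control libraries (log2 fold change 0.43 ± 0.09 (SE), edgeR adjusted p = 0.0188). Tlr3 was the single gene of 19 Toll-like receptors and adaptors to pass, with 44.6, 49.3 and 40.0 CPM in overload libraries, against 37.9, 35.4 and 31.8 CPM in control libraries (log2 fold change 0.35 ± 0.09 (SE), edgeR adjusted p = 0.0265). The share of 1 in 19 was near the 5.74% of all tested genes that rose.

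Genes of antigen presentation are given beside the 5.74% of all tested genes that rose. In class I processing 4 of 17 genes rose, a higher share. B2m, the light chain of class I molecules, had 2366, 2736 and 2222 CPM in overload libraries, against 2045, 1918 and 1676 CPM in control libraries (log2 fold change 0.38 ± 0.09 (SE), edgeR adjusted p = 0.0250). RT1.A1 and RT1.A2, heavy chains of the rat, rose by 0.26 and 0.24, and Canx, a chaperone of the endoplasmic reticulum, by 0.17. The RT1 genes are near-identical copies whose reads were divided by a model, so their values are uncertain. In class II presentation 1 of 14 genes rose, Ifi30, a reductase of endosomes, with 686, 781 and 661 CPM in overload libraries, against 577, 597 and 485 CPM in control libraries (log2 fold change 0.36 ± 0.10 (SE), edgeR adjusted p = 0.0322). Cd74, the invariant chain, had 196, 210.1 and 182 CPM in overload libraries, against 221, 226 and 193 CPM in control libraries, with overlapping groups (log2 fold change -0.12 ± 0.12 (SE), edgeR adjusted p = 0.548). Of 30 interferon-stimulated genes only Gbp2, a guanylate-binding GTPase, rose (log2 fold change 0.33 ± 0.08 (SE), edgeR adjusted p = 0.0265), and the list's median was 0.20, with 26 of 30 log2 fold changes positive. That median was 0.07 with the epithelial covariate, 0.09 (17 of 30 positive) without the libraries with Col3a1 above 10 CPM, and 0.10 to 0.27 with 1 library left out.

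Complement genes rose in 4 and fell in 1 of 21, where 5.74% of all tested genes rose and 4.09% fell. Serping1, the inhibitor of the C1 proteases, had 1332, 1561 and 1057 CPM in overload libraries, against 909, 859.7 and 734 CPM in control libraries (log2 fold change 0.66 ± 0.20 (SE), edgeR adjusted p = 0.0400). Cd59, which blocks the membrane attack complex, Vsig4, a receptor for C3 fragments, and Itgam, a chain of complement receptor 3, rose by 0.28, 0.35 and 0.36. Cd55, which speeds the decay of C3 convertases, fell by 0.31 on the log2 scale. C1qa, a chain of the first complement component, had 34.2, 27.1 and 28.9 CPM in overload libraries, against 27.2, 33.4 and 28.4 CPM in control libraries and did not pass (log2 fold change 0.02 ± 0.17 (SE), edgeR adjusted p = 0.966).

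Inflammatory mediators rose in a few genes, beside 5.74% of all tested genes that rose. Of 25 chemokines 3 rose and none fell, with a median of 0.24, and 0.35 with the epithelial covariate. Ccl3 and Ccl4, which attract monocytes and lymphocytes, had values without overlap between groups. For Ccl3 they were 101, 122 and 114 CPM in overload libraries, against 92.7, 86.9 and 64.7 CPM in control libraries (log2 fold change 0.47 ± 0.13 (SE), edgeR adjusted p = 0.0354). For Ccl4 they were 70.7, 76.4 and 63.3 CPM in overload libraries, against 59.4, 54.4 and 39.1 CPM in control libraries (log2 fold change 0.46 ± 0.12 (SE), edgeR adjusted p = 0.0289). Pf4, a chemokine of platelets and macrophages, had 81.5, 91.3 and 72.1 CPM in overload libraries, against 58.2, 64.8 and 51.1 CPM in control libraries (log2 fold change 0.49 ± 0.12 (SE), edgeR adjusted p = 0.0274). The monocyte attractant Ccl2 had 128, 158 and 159.9 CPM in overload libraries, against 95.3, 125 and 102 CPM in control libraries. It lay higher in every overload library than in every control library but did not pass (log2 fold change 0.47 ± 0.17 (SE), edgeR adjusted p = 0.0677). Cxcl2, which attracts neutrophils, had 19.1, 19.3 and 20.5 CPM in overload libraries, against 14.3, 16.4 and 15.8 CPM in control libraries (log2 fold change 0.34 ± 0.16 (SE), edgeR adjusted p = 0.170). Among 19 inflammatory cytokines and growth factors 3 rose. Csf1, the growth factor of macrophages, had 326, 319 and 252 CPM in overload libraries, against 241, 246 and 177 CPM in control libraries (log2 fold change 0.43 ± 0.12 (SE), edgeR adjusted p = 0.0347). Il18, a cytokine released by inflammasomes, rose by 0.27, and Tnfsf9, a ligand for T cells, by 0.68 at 3.82, 3.70 and 2.76 CPM in overload, against 1.95, 2.34 and 2.12 CPM in control libraries. Il1b, a cytokine of acute inflammation, had 35.6, 54.6 and 48.3 CPM in overload libraries, against 38.1, 55.3 and 35.8 CPM in control libraries, with overlapping groups (log2 fold change 0.10 ± 0.24 (SE), edgeR adjusted p = 0.838). Tnf had 15.2, 19.0 and 18.4 CPM in overload libraries, against 0, 15.9 and 12.6 CPM in control libraries (log2 fold change 0.88 ± 0.95 (SE), edgeR adjusted p = 0.600), with control replicate 1 listed at 0. None of 23 genes of NF-kB and the inflammasome passed with edgeR or with DESeq2 (3 at an unadjusted p under 0.05), and their median was 0.06.

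Proteases that cut the extracellular matrix were among the genes that rose. Of 15 metalloproteinases and inhibitors, Mmp8, Mmp9 and Mmp12 rose and Timp3 fell. Mmp8, a collagenase, had 61.3, 77.9 and 55.8 CPM in overload libraries, against 42.5, 42.2 and 35.7 CPM in control libraries (log2 fold change 0.70 ± 0.14 (SE), edgeR adjusted p = 0.0188). Mmp9, a gelatinase, had 783, 923 and 686 CPM in overload libraries, against 588, 568 and 423 CPM in control libraries (log2 fold change 0.60 ± 0.13 (SE), edgeR adjusted p = 0.0220). Timp3, an inhibitor of metalloproteinases, had 3.42, 3.19 and 7.46 CPM in overload libraries, against 14.1, 14.0 and 33.1 CPM in control libraries, and control replicate 3, a library with fibroblast transcripts, was the highest (log2 fold change -2.12 ± 0.55 (SE), edgeR adjusted p = 0.0290). With the epithelial covariate the log2 fold change of Timp3 was -1.24. Among 28 profibrotic and plasminogen genes 3 rose and 2 fell. F13a1, the transglutaminase of clotting factor XIII, had 9.01, 10.2 and 6.21 CPM in overload libraries, against 5.95, 5.11 and 3.15 CPM in control libraries (log2 fold change 0.84 ± 0.25 (SE), edgeR adjusted p = 0.0362), and Plau, the urokinase, rose by 0.18. Areg, a ligand of the EGF receptor, had 13.9, 6.93 and 21.2 CPM in overload libraries, against 27.4, 34.8 and 40.5 CPM in control libraries (log2 fold change -1.29 ± 0.39 (SE), edgeR adjusted p = 0.0400). The matricellular protein Ccn1 had 135, 83.1 and 138 CPM in overload libraries, against 168, 170.1 and 228 CPM in control libraries (log2 fold change -0.67 ± 0.21 (SE), edgeR adjusted p = 0.0465). Of 29 genes of the actin cytoskeleton and of adhesion 8 rose and 2 fell. Vim, an intermediate filament protein, had 2200.4, 2302 and 1804 CPM in overload libraries, against 1673, 1565 and 1417 CPM in control libraries (log2 fold change 0.44 ± 0.10 (SE), edgeR adjusted p = 0.0223), and Tmsb4x, which binds actin monomers, had 4088, 4859 and 3986 CPM in overload libraries, against 3327, 3526 and 3185 CPM in control libraries (log2 fold change 0.37 ± 0.09 (SE), edgeR adjusted p = 0.0274). The actin crosslinkers Actn1 and Actn4 fell by 0.39 and 0.36 on the log2 scale.

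Antioxidant, iron and glycolysis genes rose in small numbers, beside 5.74% of all tested genes that rose. Of 29 antioxidant genes of the NRF2 response 3 rose. Hmox1, which breaks down haem, had 958, 987 and 826 CPM in overload libraries, against 825, 744 and 633 CPM in control libraries (log2 fold change 0.33 ± 0.09 (SE), edgeR adjusted p = 0.0302), and thioredoxin, Txn1, had 677, 764 and 703 CPM in overload libraries, against 566, 628 and 541 CPM in control libraries (log2 fold change 0.31 ± 0.08 (SE), edgeR adjusted p = 0.0278). Hmox1 had 826 CPM in its lowest overload library and 825 CPM in its highest control library, so the groups nearly met. Cat, which encodes catalase, rose by 0.28 with overlapping groups. Of 20 iron and metal genes 3 rose, Hmox1, the ferritin autophagy receptor Ncoa4 and the zinc transporter Slc39a1, and Slc39a8, another metal importer, fell. Slc39a8 had 51.6, 42.1 and 59.1 CPM in overload libraries, against 80.3, 74.8 and 84.5 CPM in control libraries (log2 fold change -0.65 ± 0.18 (SE), edgeR adjusted p = 0.0330). Of 36 genes of glucose uptake, glycolysis and hypoxia 6 rose and none fell, with a median of 0.10. Ndrg1, a hypoxia-responsive gene, had 1226, 1482 and 1088 CPM in overload libraries, against 976, 932 and 762 CPM in control libraries (log2 fold change 0.51 ± 0.14 (SE), edgeR adjusted p = 0.0313). Hk3, a hexokinase of myeloid cells, rose by 0.36, and Eno2, Slc2a6, Pfkp and Ero1a by 0.46, 0.53, 0.24 and 0.32. The glucose transporter Slc2a1 had 232, 232 and 231 CPM in overload libraries, against 228, 231 and 194 CPM in control libraries and did not pass (log2 fold change 0.09 ± 0.07 (SE), edgeR adjusted p = 0.427). Among 16 eicosanoid genes Alox15, a lipoxygenase, rose with 7.82, 10.5 and 7.46 CPM in overload libraries, against 6.58, 6.57 and 4.93 CPM in control libraries (log2 fold change 0.51 ± 0.16 (SE), edgeR adjusted p = 0.0422). The share of 1 in 16 was near that of all tested genes that rose.

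**Figure D4:**
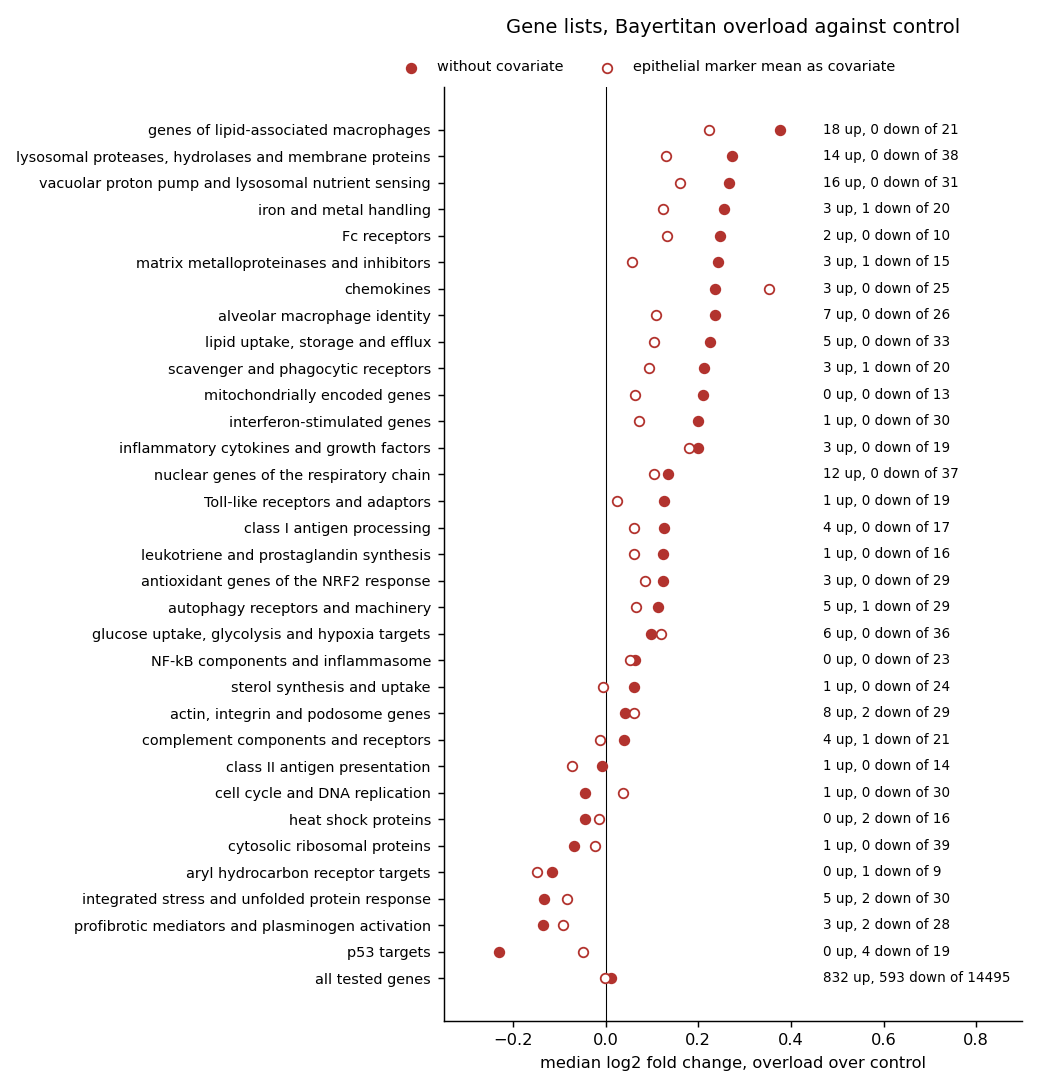
Median log2 fold change of overload over control for each gene list (filled points) and with the mean of the epithelial markers as a covariate (open points), with the number of genes past the test without covariate at the right. Medians of the lipid-associated, lysosomal and proton pump lists stand at 0.27 to 0.38 without and 0.13 to 0.22 with the covariate, and that of p53 targets at -0.23 and -0.05.

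Stress genes gave calls in both directions, beside 5.74% of all tested genes that rose and 4.09% that fell. Of 30 genes of the integrated stress and unfolded protein responses 5 rose and 2 fell, with a median of -0.13. Among those that rose, Atf3, a stress-induced transcription factor, had 255, 317 and 258 CPM in overload libraries, against 228, 220.3 and 186 CPM in control libraries (log2 fold change 0.39 ± 0.10 (SE), edgeR adjusted p = 0.0302). The chaperone genes of the endoplasmic reticulum Sdf2l1 and Dnajb9 rose by 0.32 and 0.29, Edem1, which sorts misfolded proteins, by 0.23, and Psat1 of serine synthesis by 0.28. Trib3, a pseudokinase induced by ATF4, had 5.98, 4.28 and 6.56 CPM in overload libraries, against 9.84, 9.06 and 10.6 CPM in control libraries and fell (log2 fold change -0.81 ± 0.20 (SE), edgeR adjusted p = 0.0263). Asns, the asparagine synthetase, fell by 0.47 on the log2 scale. Of 16 heat shock genes 2 fell and none rose. Hspa1b, an inducible form of HSP70, had 9.98, 7.71 and 13.7 CPM in overload libraries, against 16.2, 15.7 and 18.8 CPM in control libraries (log2 fold change -0.69 ± 0.21 (SE), edgeR adjusted p = 0.0382), and Cryab, a small heat shock protein, had 3.82, 2.65 and 6.56 CPM in overload libraries, against 8.21, 7.73 and 9.95 CPM in control libraries (log2 fold change -0.99 ± 0.31 (SE), edgeR adjusted p = 0.0435). Hspa1b has a near-identical copy, so its value is uncertain.

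Targets of p53 fell in 4 of 19 genes, and none rose. Mdm2, the ubiquitin ligase of p53, had 103, 92.4 and 111 CPM in overload libraries, against 122, 129.5 and 149.7 CPM in control libraries (log2 fold change -0.39 ± 0.12 (SE), edgeR adjusted p = 0.0452). Aen, a nuclease, had 41.4, 36.8 and 48.5 CPM in overload libraries, against 53.8, 58.1 and 61.3 CPM in control libraries (log2 fold change -0.45 ± 0.12 (SE), edgeR adjusted p = 0.0288). Zmat3, an RNA-binding protein, and Eda2r, a receptor of the TNF receptor family, fell by 0.40 and 0.95 on the log2 scale. The median was -0.23, and -0.05 with the epithelial covariate. Among 9 targets of the aryl hydrocarbon receptor Tiparp, a feedback inhibitor of the receptor, fell (log2 fold change -0.30 ± 0.10 (SE), edgeR adjusted p = 0.0492), and Cyp1b1, a cytochrome P450, had 78.3, 32.2 and 77.0 CPM in overload libraries, against 56.6, 65.0 and 81.4 CPM in control libraries (log2 fold change -0.12 ± 0.67 (SE), edgeR adjusted p = 0.942). Of 30 cell cycle genes Aurkb, a mitotic kinase, rose with 135, 147 and 122 CPM in overload libraries, against 93.7, 98.1 and 80.9 CPM in control libraries (log2 fold change 0.57 ± 0.10 (SE), edgeR adjusted p = 0.0188), while the list's median was -0.04, with 9 of 30 log2 fold changes positive. The median turned to 0.04 with the epithelial covariate, was -0.23 (2 of 30 positive) without the libraries with Col3a1 above 10 CPM, and lay between -0.27 and 0.13 with 1 library left out, so no direction is given for the list.

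The 12 largest rises, among genes with at least 5 CPM in overload and no overlap, included Fabp4 of the lipid-associated list. Best1, a chloride channel, had 3.78, 6.38 and 6.87 CPM in overload libraries, against 3.04, 2.76 and 2.54 CPM in control libraries (log2 fold change 1.03 ± 0.30 (SE), edgeR adjusted p = 0.0362). Decorin, Dcn, a proteoglycan of fibroblasts, had 45.8, 23.5 and 18.9 CPM in overload libraries, against 13.9, 14.7 and 15.1 CPM in control libraries, and overload replicate 1, which carries the Col3a1 transcripts, was the highest (log2 fold change 1.01 ± 0.28 (SE), edgeR adjusted p = 0.0317). The libraries without Col3a1 transcripts had 23.5 and 18.9 CPM in overload, against 13.9 and 14.7 CPM in control. Dcn was chosen for groups without overlap, so leaving libraries out could not make them overlap. Cd5l, a secreted protein of tissue macrophages, had 158, 172 and 109 CPM in overload libraries, against 85.3, 92.3 and 66.5 CPM in control libraries (log2 fold change 0.85 ± 0.27 (SE), edgeR adjusted p = 0.0484). Slc28a2, a nucleoside transporter, had 88.0, 119.8 and 70.1 CPM in overload libraries, against 56.2, 54.9 and 47.0 CPM in control libraries (log2 fold change 0.81 ± 0.17 (SE), edgeR adjusted p = 0.0188), and Slc9a9, a sodium-proton exchanger of endosomes, had 9.01, 11.1 and 6.72 CPM in overload libraries, against 5.24, 4.86 and 4.33 CPM in control libraries (log2 fold change 0.90 ± 0.29 (SE), edgeR adjusted p = 0.0486). Fabp4 and F13a1, given above, and AABR07051947.1, Serpinc1, Klhl32, Efr3b and Radx complete the 12, with log2 fold changes between 0.70 and 0.89 for the last 5. Serpinc1 encodes antithrombin, and AABR07051947.1 is an identifier for which the table gives no gene name.

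The largest falls, chosen by the same limits, were steeper than the largest rises. Clic5, a protein of the chloride intracellular channel family, had 6.31, 5.09 and 12.7 CPM in overload libraries, against 27.5, 25.6 and 34.5 CPM in control libraries (log2 fold change -1.87 ± 0.39 (SE), edgeR adjusted p = 0.0188). Wnt4, a secreted Wnt ligand, had 10.8, 5.09 and 24.1 CPM in overload libraries, against 36.6, 42.5 and 43.3 CPM in control libraries (log2 fold change -1.62 ± 0.43 (SE), edgeR adjusted p = 0.0302). In both, overload replicate 3 lay closest to the controls, as it did in the epithelial markers. Dact2, a regulator of Wnt signalling, had 2.56, 2.10 and 7.92 CPM in overload libraries, against 11.6, 11.1 and 16.5 CPM in control libraries (log2 fold change -1.64 ± 0.47 (SE), edgeR adjusted p = 0.0355). Ephb6, an ephrin receptor without kinase activity, had 3.86, 1.70 and 7.18 CPM in overload libraries, against 12.2, 11.9 and 19.0 CPM in control libraries (log2 fold change -1.76 ± 0.51 (SE), edgeR adjusted p = 0.0357). Akap5, an anchor for protein kinase A, had 1.26, 0.849 and 2.76 CPM in overload libraries, against 5.52, 5.35 and 8.56 CPM in control libraries (log2 fold change -2.00 ± 0.54 (SE), edgeR adjusted p = 0.0302). Timp3, given above, the formin Fhod3, the creatine kinase Ckmt1, the anoctamin Ano3 and the identifiers AABR07060833.1, AABR07058918.1 and AABR07073350.1 complete the 12, with log2 fold changes from -2.12 to -1.60. With the epithelial covariate Clic5 had a log2 fold change of -1.13 and Wnt4 of -0.91.

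Epithelial genes were low in the same libraries. Krt7, a keratin of simple epithelia, had 669, 551 and 1124 CPM in overload libraries, against 1223, 1327 and 1482 CPM in control libraries and was the single gene of the 6 epithelial markers to pass (log2 fold change -0.78 ± 0.25 (SE), edgeR adjusted p = 0.0466). Epcam, an epithelial adhesion molecule, had 61.0, 45.8 and 106 CPM in overload libraries, against 117, 141 and 148 CPM in control libraries (log2 fold change -0.94 ± 0.34 (SE), edgeR adjusted p = 0.0700), and Krt8, the partner keratin of simple epithelia, had 397, 324 and 535 CPM in overload libraries, against 519, 600.3 and 613 CPM in control libraries (log2 fold change -0.46 ± 0.20 (SE), edgeR adjusted p = 0.133). All 6 log2 fold changes were negative, with a median of -0.76. Of 14 tested markers of airway and alveolar epithelium Ager, the receptor RAGE of alveolar type I cells, fell with 3.53, 3.53 and 7.18 CPM in overload libraries, against 8.85, 9.34 and 13.6 CPM in control libraries (log2 fold change -1.16 ± 0.36 (SE), edgeR adjusted p = 0.0435). The 20 genes of that list in the table summed to 432, 415 and 489 CPM in overload, against 573, 536 and 564 CPM in control libraries, and Muc5b, Sftpb and Sftpc were at 0 in all 6. What part the lower epithelial signal has in the falls and rises was not tested. In the fit with the mean of the epithelial markers as a covariate, the medians of 27 of 32 gene lists were closer to 0.

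Markers of other cells moved in a few genes. Endothelial markers summed to 135, 154 and 119 CPM in overload, against 110, 105 and 88.3 CPM in control libraries, and 2 of 6 tested genes rose. These were Tie1 with 105, 121 and 94.0 CPM in overload libraries, against 83.8, 82.6 and 68.5 CPM in control libraries (log2 fold change 0.44 ± 0.11 (SE), edgeR adjusted p = 0.0265) and Cdh5 with 20.8, 25.5 and 15.1 CPM in overload libraries, against 15.8, 13.7 and 9.83 CPM in control libraries (log2 fold change 0.65 ± 0.18 (SE), edgeR adjusted p = 0.0340), while Cldn5 and Emcn were at 0. Neutrophil markers summed to 797, 939 and 699 CPM in overload, against 598, 579 and 433 CPM in control libraries, of which Mmp9 gave most, and Mpo and Np4 were at 0. Of 14 monocyte markers Spn, the sialophorin CD43, rose with 118, 146 and 107 CPM in overload libraries, against 86.9, 86.5 and 74.2 CPM in control libraries (log2 fold change 0.58 ± 0.13 (SE), edgeR adjusted p = 0.0233), as did F13a1, and the list's median was -0.09. The monocyte markers summed to 3878, 3136 and 4583 CPM in overload, against 4776, 4958 and 6071 CPM in control libraries, so the sum was lower in every overload library than in every control library. Among 7 markers of smooth muscle and pericytes Des, which encodes desmin, rose (log2 fold change 0.54 ± 0.17 (SE), edgeR adjusted p = 0.0447), with Rgs5 at 0 and sums of 546 to 718 CPM in overload and 620 to 905 CPM in control libraries. No tested marker of lymphocytes (6), dendritic cells (6), mast cells and eosinophils (2) or erythroid cells (2) passed with edgeR or DESeq2, and 1 of them, an erythroid marker, had an unadjusted p under 0.05. The sums of these lists were at most 53.9 CPM in any of the 6 libraries. The part of these cells in the results was not tested.

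The non-overload cultures lay between control and overload for most of these genes. Non-overload and overload share the 3 control libraries as reference, so their values are set side by side and not counted as separate evidence. Fabp4 averaged 714 ± 90.2 CPM in control, 1084 ± 46.3 CPM in non-overload and 1177 ± 202 CPM in overload cultures (SD, n = 3 each). Mmp12 averaged 6696 ± 841, 8515 ± 218 and 9507 ± 1293 CPM in the same order, and Wnt4 40.8 ± 3.67, 24.3 ± 3.39 and 13.4 ± 9.75 CPM. For 1376 of the 1425 genes the non-overload mean of log2 expression lay between those of control and overload, in genes chosen for the difference of these groups. Overload against non-overload gave 0 calls with edgeR (927 genes at an unadjusted p under 0.05) and 2 with DESeq2. Non-overload against control gave 0 calls with edgeR (2350 genes at an unadjusted p under 0.05) and 38 with DESeq2. The lipid-associated list had a median log2 fold change of 0.24 in non-overload and 0.38 in overload cultures, both against control. For the lysosomal list the medians were 0.15 and 0.27 and for the proton pump list 0.09 and 0.27.

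The overload effect of Bayertitan was next set against those of the other particles, each relative to its own 3 control libraries. The difference of 2 such effects is given as Bayertitan minus the other particle. From the effect of the titanium dioxide G3-1 none of the genes differed with edgeR (1278 at an unadjusted p under 0.05, 6 by DESeq2). G3-1 overload itself gave 17 calls (0.117%), and its medians were 0.09 for the lipid-associated, 0.03 for the lysosomal and 0.01 for the proton pump list. Of 36 glycolysis and hypoxia genes 10 rose with G3-1 (median 0.41), against 6 with Bayertitan (median 0.10). None of these genes differed between the effects of Bayertitan and G3-1 with edgeR. From the effect of the carbon black Printex90 26 genes differed (0.179%), all with a more positive effect of Bayertitan. From that of the titanium dioxide G1-1 703 differed (4.85%), of which 499 had a more positive (3.44%) and 204 a more negative (1.41%) effect of Bayertitan. With the epithelial covariate these counts were 42 for Printex90, 41 of them more positive, and 139 for G1-1.

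The counts of differing genes rested on single libraries as well. Without the libraries with Col3a1 above 10 CPM, which leaves 1 to 3 libraries a group (2 in each of the Bayertitan and G1-1 groups compared here, and 3 overload and 1 control library for Printex90), 7 genes differed from G1-1, 2 with a more positive and 5 with a more negative effect of Bayertitan. From Printex90 10 differed in that fit, 8 more positive and 2 more negative. The lone control library is assumed there to vary like the libraries of the other groups. Leaving out overload replicate 1 or 2 gave 446 and 211 genes for G1-1, and leaving out control replicate 1 or 3 gave 412 and 228. For Printex90 17 genes differed without overload replicate 2, 17 without control replicate 1 and 14 without control replicate 3.

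Of the 26 genes that differed from Printex90, 24 fell with Printex90 overload, in which 2.84% of all tested genes fell, and 3 passed with Bayertitan overload. Stab1, a scavenger receptor, had a log2 fold change of 0.38 ± 0.24 (SE) with Bayertitan and -2.48 ± 0.29 with Printex90, and the difference was 2.86 ± 0.38 (edgeR adjusted p = 0.000150). C1qb, a chain of C1q, had -0.08 ± 0.17 and -1.81 ± 0.19, with a difference of 1.72 ± 0.25 (edgeR adjusted p = 0.000597). The leukotriene enzyme Alox5 had 0.10 ± 0.12 and -1.29 ± 0.13, with a difference of 1.39 ± 0.17 (edgeR adjusted p = 9.68e-05). The list of class II presentation differed in 4 of 14 genes, Cd74, Ciita, RT1.Bb and RT1.Da, by 0.94 to 1.31. Ciita is the master transcription factor of class II genes. C1qc, the neutrophil attractant Cxcl2, the inflammasome adaptor Pycard, the phagocytic receptor Axl, the receptor chain Csf2rb and the genes Cyp1a1 and Cyp1b1 differed as well. Col3a1 was above 10 CPM in no Printex90 overload library, and 1 of the 3 Printex90 control libraries was free of it in that sense. With that lone control, a fit without such libraries cannot decide whether these genes differ apart from fibroblast transcripts. In the lipid-associated, lysosomal and proton pump lists no gene differed between Bayertitan and Printex90 with edgeR or DESeq2 (0 of 21, 0 of 38 and 0 of 31, with 1 gene of each list at an unadjusted p under 0.05). Their medians were 0.38 and 0.39, 0.27 and 0.26, and 0.27 and 0.29 with Bayertitan and Printex90. Mmp12 had 0.51 ± 0.11 with Bayertitan and 0.40 ± 0.11 with Printex90, a difference of 0.11 ± 0.15 (edgeR adjusted p = 1.000).

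Differences from G1-1 included glycolysis, stress, class II and complement genes. Of 36 glycolysis and hypoxia genes 10 had a more negative effect with Bayertitan. The median of this list was 0.49 with G1-1, 0.41 with G3-1, 0.29 with Printex90 and 0.10 with Bayertitan. Slc2a1 had 0.09 ± 0.07 with Bayertitan and 0.94 ± 0.07 with G1-1, and the difference was -0.85 ± 0.10 (edgeR adjusted p = 2.26e-05). Hexokinase Hk2, the regulator Pfkfb3, the oxygen sensor Egln3 and the growth factor Vegfa differed by -0.75, -0.55, -2.72 and -1.85. Of 30 stress response genes 12 had a more negative effect and 3 a more positive one. Trib3 had -0.81 ± 0.20 with Bayertitan and 1.49 ± 0.20 with G1-1 (difference -2.30 ± 0.28, edgeR adjusted p = 2.26e-05). Atf4, the central transcription factor of the integrated stress response, had -0.17 ± 0.08 and 0.45 ± 0.08 (difference -0.62 ± 0.11, edgeR adjusted p = 0.00238). Class II genes differed in 5 of 14 and complement genes in 9 of 21, 8 of them with a more positive effect of Bayertitan. Cfp, which encodes properdin, had 0.02 ± 0.10 and -0.94 ± 0.10 (difference 0.95 ± 0.15, edgeR adjusted p = 0.000576), and the receptor C3ar1 had a difference of 1.35 ± 0.27. Fabp4 had 0.72 ± 0.15 with Bayertitan and -0.41 ± 0.15 with G1-1 (difference 1.13 ± 0.22, edgeR adjusted p = 0.00374), and Cd9 differed by 0.54 ± 0.13. With the epithelial covariate 4 glycolysis, 6 stress and 5 complement genes still differed from G1-1 and no class II gene did, while 4 class II and 2 complement genes differed from Printex90 both with and without it. Without the libraries with Col3a1 above 10 CPM 2 glycolysis genes, 1 stress gene and no class II or complement gene differed from G1-1. For Printex90 that fit has 1 control library and cannot decide. Fabp4, Atf4 and Cfp were not among the 7 genes that then differed from G1-1.

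**Figure D5:**
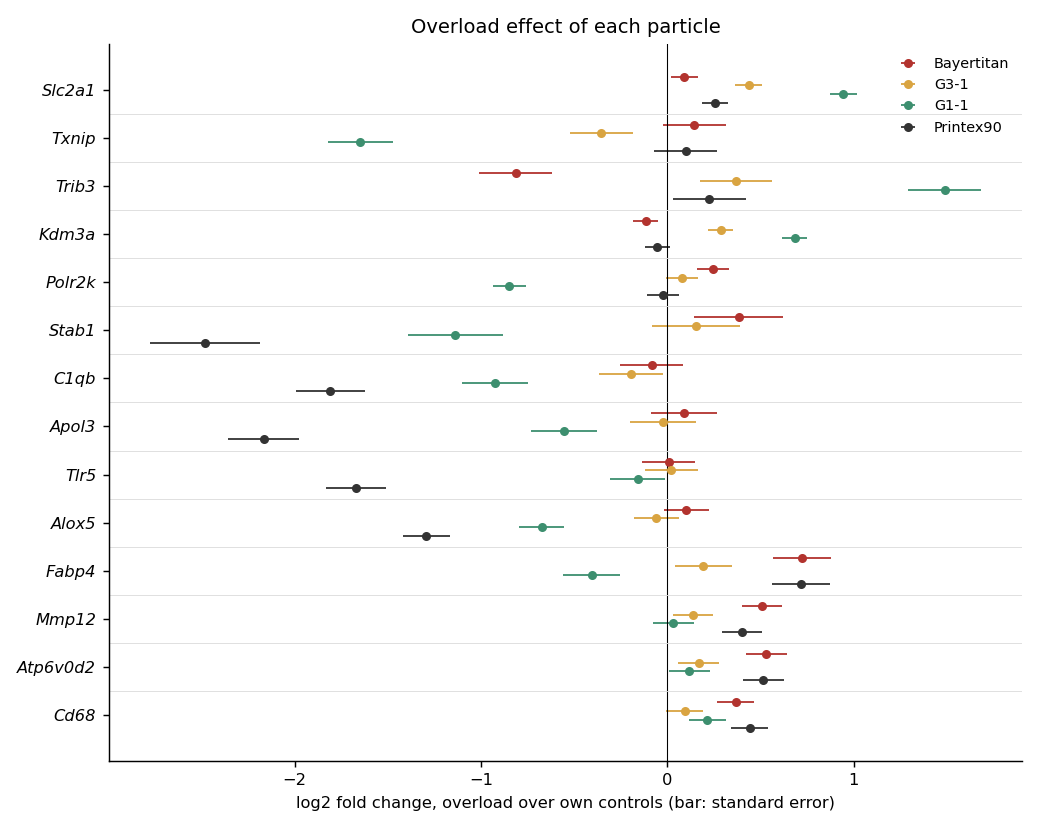
Log2 fold change of overload over its own controls with SE bars for 14 genes and 4 particles. Bayertitan (red) is near 0 or above it for Stab1, C1qb, Apol3, Tlr5 and Alox5, where Printex90 (black) lies below -1, and for Slc2a1, Kdm3a and Trib3 it lies left of G1-1 (green), which is above 0.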

How the data were processed

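Bulk RNA sequencing was done on primary rat alveolar macrophages. Per the labels' protocols, the RNA (RNeasy, DNase-treated) was depleted of ribosomal RNA and 150 ng went into a KAPA library preparation. The submitters' processing notes name Salmon, FastQC, MultiQC and build Rnor_6.0, while versions, annotation and strand are not given in the sources used here. The authors deposited estimated counts per gene, not scaled between libraries (47.7% of values are not whole). Such counts share out reads of near-identical copies by estimation, so multigene families and overlapping or antisense genes are uncertain. The 6 rows without a gene name, 0.00206% of the counts, were left out.

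Counts were rounded, filtered with filterByExpr by group and normalised by TMM (edgeR 4.0.16, limma 3.58.1, R 4.3.3). A quasi-likelihood model with 12 group means was fitted to all 36 libraries (24 residual degrees of freedom). P-values of 14495 genes were adjusted after Benjamini and Hochberg and compared with 0.05. CPM values were computed from the deposited counts. Standard errors are the log2 fold change over the root of its F. Differences between particles are differences of contrasts. Libraries of a group were no duplicates (chi-square per gene 13.0 to 52.2 between pairs).

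The gene lists, tests and naming rule were chosen with earlier results of these data known. The rule took, among called genes whose groups did not overlap and whose higher mean reached 5 CPM, the 12 largest in each direction, up to 4 members of each list with the smallest p, the 5 smallest p of each difference and a set of fixed genes. Further list members were named after their values were seen. Lists were described by counts and medians, with no set test. The script was tested on simulated data. Alternatives were DESeq2 1.42.0, its size factors, no filter on low counts, smaller sets of libraries, marker means as covariates, replicate blocks and each library left out. Rnor_6.0 coordinates were not used here.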

Additional observations from a re-analysis of the deposited data

Results flagged for a closer look

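The overload effect of Bayertitan differed from that of another particle for 10 genes named here, by the test of the difference of the log2 fold changes against each particle's own controls (edgeR, adjusted over all tested genes). Against Printex90 the difference was 2.86 for the scavenger receptor Stab1, 2.25 for Apol3, 1.72 for C1qb, 1.68 for the flagellin receptor Tlr5 and 1.39 for Alox5. These 5 genes fell with Printex90 and did not pass with Bayertitan. Against G1-1 the difference was -0.80 for the histone demethylase Kdm3a, -0.85 for Slc2a1 and -2.30 for Trib3, and 1.09 for the RNA polymerase subunit Polr2k and 1.79 for Txnip. Of these, Trib3 fell with Bayertitan and the other 4 did not pass. All 10 still differed when the mean of the epithelial markers was a covariate. Without the libraries with Col3a1 above 10 CPM the 5 genes named against G1-1 still differed. For Printex90 that fit has 1 control library, so it cannot decide whether the other 5 differ. Their differences were then 2.98 for Stab1, 2.33 for Apol3, 1.68 for C1qb, 1.69 for Tlr5 and 1.21 for Alox5.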

How the results depend on the processing

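All 1425 genes past the test kept their direction under DESeq2, its size factors, no low-count filter, the replicate block and both marker covariates. All of these fits, those with marker covariates included, reuse the same libraries. The genes were chosen for this difference, so the fits say little of direction. The same holds for fits on fewer libraries. In 808 of the genes that rose and 579 of those that fell the groups do not overlap, which largely fixes their sign. The calls moved between fits. Against 832 higher and 593 lower genes, no low-count filter gave 465 and 372, DESeq2 1053 and 1052, and the fibroblast covariate 1222 and 930. Both counts were 0 with the 9 Bayertitan libraries alone, the 6 overload and control libraries alone, the epithelial covariate, and without libraries with Col3a1 above 10 CPM. These fits had 3557, 3317, 1572 and 2376 genes at an unadjusted p under 0.05. Over fits that left out 1 library the counts ranged from 0 to 1044 higher and from 0 to 1275 lower. The cause was not tested, beyond the fewer libraries or the added term of each fit.

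DESeq2 called 2 genes between overload and non-overload and 38 between non-overload and control, where edgeR called 0. For the difference from Printex90 DESeq2 gave 55 and the epithelial covariate 42 genes, against 26. For G1-1 these were 1096 and 139, against 703, and for G3-1 DESeq2 gave 6, against 0. Further fits were chosen after seeing the data. Without libraries with Col3a1 above 10 CPM 7 genes differed from G1-1, and that fit left 1 control library for Printex90. Without the low-count filter 466 genes differed from G1-1. With 1 Bayertitan library left out the counts were 14 to 20 for Printex90, 211 to 975 for G1-1 and 0 for G3-1. The medians of 11 of 32 gene lists moved by a factor above 3/2 without the libraries with Col3a1. The epithelial marker difference ranged from -1.05 to -0.55 with a library left out. The fibroblast marker difference ranged from -1.02 to 1.50 and turned negative without overload replicate 1, control replicate 1 (-0.19) or control replicate 2 (-0.21).

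Whether replicate numbers pair the libraries could not be decided. Deviations of same-numbered overload and control libraries correlated at -0.41, 0.17 and -0.15, and 0 of 6 libraries correlated best with their own number. For non-overload and control they correlated at 0.45, -0.13 and 0.29, and for overload and non-overload at -0.72, -0.36 and -0.21. Deviations from means of 3 libraries cannot exclude pairing. With replicate number as a block, 1193 genes were higher and 850 lower, and 111 of 112 named genes past the test remained. For the differences from Printex90, G1-1 and G3-1 the block gave 33, 977 and 0 genes. The filter on low counts kept Marco, with at most 7 counts in a Bayertitan library, out of the tests.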
